A study of Mus musculus with 18 samples.

Results

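Endothelial cells (ECs) from spontaneous tumours that had received the STING agonist cGAMP were set against ECs from implanted tumours that had received only phosphate-buffered saline (PBS). The members were the 3 libraries labelled MMTV-PyMT tumor_cGAMP and the 3 labelled Implanted tumor_PBS, chosen by label, 6 of the 18 bulk RNA sequencing libraries of the series. Mice were of the FVB strain in all groups, and according to the study's methods they were female. The MMTV-PyMT genotype carries a viral oncogene behind the MMTV promoter, which is active in mammary epithelium, so the tumours arise in the animal's own gland and the host itself is transgenic. The implanted tumours grew in the mammary fat pad of wild type hosts from MMTV-PyMT tumour cells that had been cultured and injected with Matrigel. All tumours were collected 3 hours after the injection, and ECs were sorted as live CD45-, CD31+ cells after CD31 bead enrichment. The labels give no age. Libraries of a group came from separate mice, and the experiment of each library was not named.

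The 2 groups differed in both tumour type and treatment, so neither factor can be told apart within this pairing (the main pairing). The other 2 tumour groups, implanted tumours under cGAMP and MMTV-PyMT tumours under PBS, form the mirror pairing, in which the treatment sits on the implanted side. The mirror pairing shares no library with the main pairing. A gene's direction in both shows which factor its higher sides shared, not that the other factor had no effect.

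cGAMP binds STING, a membrane protein that activates the kinase TBK1, the interferon regulatory factor IRF3 and NF-kB. Type I interferon then acts on its receptor and switches on antiviral genes that carry interferon-stimulated response elements in their promoters. Interferon-γ is the classical inducer of guanylate-binding GTPases and, through the coactivator CIITA, of MHC class II. Tumour vessels also hold sprouting tip cells, which answer VEGF and hypoxia, while venous ECs carry the selectins that capture leukocytes.

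Expression was given as FPKM, the fragments of a gene divided by its length and by a factor for the library. That factor was not the recovered read total alone. The ratio of the factor to the reads was 0.999 to 1.03 in treated MMTV-PyMT ECs and 0.976 to 1.02 in untreated implanted ECs, but 0.744 to 0.839 in treated implanted ECs and 1.11 to 1.12 in untreated MMTV-PyMT ECs. Differences are log2(FPKM + 1) values, MMTV-PyMT cGAMP minus implanted PBS, from a limma fit over all 18 libraries. A gene was called when its Benjamini-Hochberg adjusted p was under 0.05 and its difference at least 1 on this log2 scale in either direction. It was termed alike when the 95% interval of the difference lay wholly within -1 to 1.

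The 6 libraries held 9076682 to 10503453 reads recovered from the FPKM steps. Library-to-library correlations of log2 values were 0.981 to 0.986 within treated MMTV-PyMT ECs, 0.983 to 0.985 within untreated implanted ECs and 0.922 to 0.947 between the groups. All 8 endothelial markers were present, and none was called by limma, though 5 had an unadjusted p under 0.05 (1 higher, 4 lower). For scale, 4838 of the 13983 tested genes had an adjusted p under 0.05 at any size of difference (limma, Benjamini-Hochberg). The endothelial markers summed to 774 to 1050 FPKM in treated MMTV-PyMT ECs and 1010 to 1280 FPKM in untreated implanted ECs. Markers of other cells were not silent. The 10 epithelial markers summed to 1580, 1160 and 1170 FPKM in the treated MMTV-PyMT libraries and to 1030, 771 and 1020 FPKM in the untreated implanted ones, with no overlap. Krt5 alone was called, higher, and at an unadjusted p under 0.05 by limma 6 differed (5 higher, 1 lower). Krt19 (-0.49) and Csn2 (-0.71) had lower values without a call. Csn3 was the largest single term of the sum (mean 494 against 410 FPKM). The 10 leukocyte markers in the table summed to 25.9, 24 and 27.7 FPKM against 55.6, 32.3 and 74.9 FPKM, none of them called by limma and 2 lower at an unadjusted p under 0.05. Several lay near or under 1 FPKM, where adding 1 before the log damps differences. Cd8a, for one, was at 0.0292 to 0.0824 against 0.838 to 1.85 FPKM, while the mean of Cd79a went the other way (0.602 against 0.365 FPKM). The fibroblast sum was 167 to 227 against 283 to 320 FPKM (Lum called higher, Col1a1 lower), and the red cell and platelet sum was 36.7 to 94.3 against 7.73 to 18.9 FPKM (Hba-a1 and Hbb-bs called higher). Mural sums were 250 to 351 against 222 to 262 FPKM with Cspg4 called lower, lymphatic sums were 7.38 to 12.7 against 9.08 to 15.9 FPKM, and no adipocyte marker was among the genes of the table. In bulk samples, fewer cells of a type and less RNA per cell cannot be told apart.

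**Figure D1:**
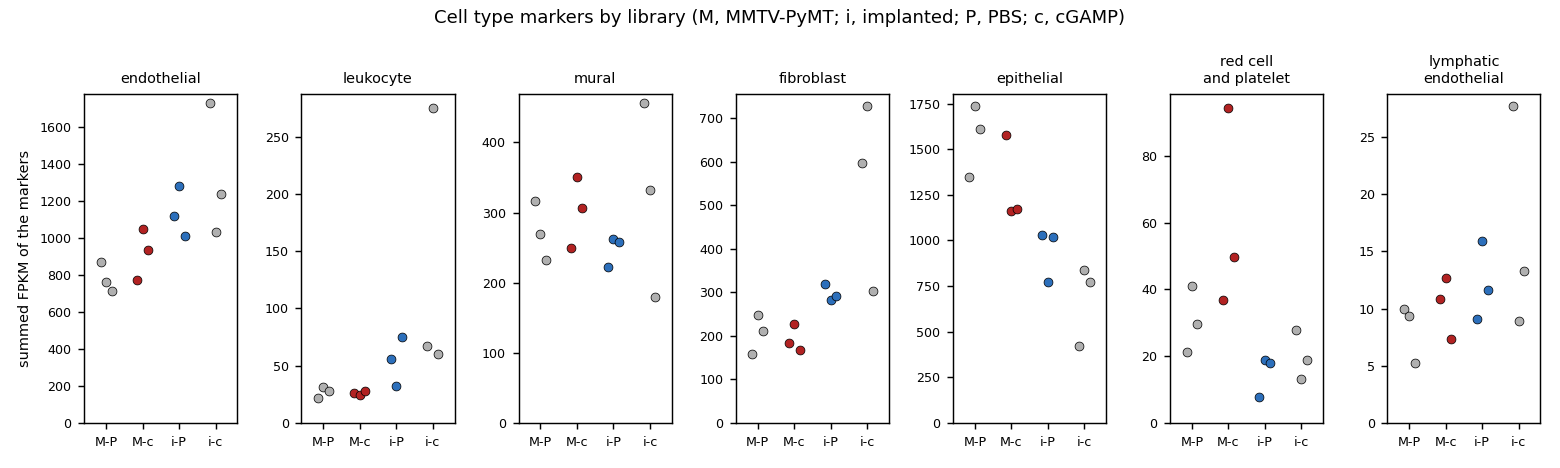
Summed FPKM of each marker list (vertical axes, linear, from 0) in the 12 tumour libraries, 1 point per library; red marks MMTV-PyMT cGAMP, blue implanted PBS, and grey the mirror groups. Epithelial and red cell sums were higher in all 3 treated MMTV-PyMT libraries than in the untreated implanted ones, leukocyte and fibroblast sums were lower, and implanted cGAMP library 2 stood apart with a leukocyte sum of 275 FPKM.

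Most genes were alike between treated MMTV-PyMT and untreated implanted ECs. Of 13983 tested genes, 682 (4.88%) were called, 402 (2.87%) higher and 280 (2.0%) lower in treated MMTV-PyMT ECs, while 11817 (84.5%) were alike and 1484 were neither. The 2 groups of libraries did not overlap for 6797 genes (48.6%). The median difference of all tested genes was 0.007. In the mirror pairing 2648 genes (18.9%) were called, 1712 (12.2%) higher and 936 (6.69%) lower in treated implanted ECs. This balance depended on the scaling, since FPKM rescaled by total recovered reads gave 995 genes higher and 2166 lower there, against 414 and 262 in the main pairing.

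Genes called in both pairings fell into 3 directions. They are described as having followed the treatment, implantation or the spontaneous tumour, whichever the higher side of both pairings shared. Such a gene could still differ by the other factor. Rsad2 followed the treatment, yet was 1.76 higher in implanted than in MMTV-PyMT ECs under PBS. Ms4a6d followed implantation, yet was 2.06 higher under cGAMP than under PBS in implanted ECs. Treated ECs were higher in both pairings for 165 genes, which made up 41% of the 402 genes higher in the main pairing and 9.64% of the 1712 higher in the mirror pairing. By limma 0 genes were called lower in treated ECs of both pairings, and 407 were lower in both at an unadjusted p under 0.05. Implanted-tumour ECs were higher in both pairings for 187 genes (66.8% of the 280 and 10.9% of the 1712). Spontaneous-tumour ECs were higher in both for 151 genes (37.6% of the 402 and 16.1% of the 936). A further 179 genes were called in the main pairing alone, 86 higher and 93 lower. In the opposite case, 1521 genes were called in the mirror pairing and were alike in the main one, 948 of them higher and 573 lower in treated implanted ECs (55.4% of the 1712 and 61.2% of the 936). Both shares were below the 84.5% alike among all tested genes. Rescaled by total recovered reads, 150 genes followed the treatment, 135 implantation and 184 the spontaneous tumour, so the order of the 3 directions changed, and 2127 mirror-called genes were alike.

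**Figure D2:**
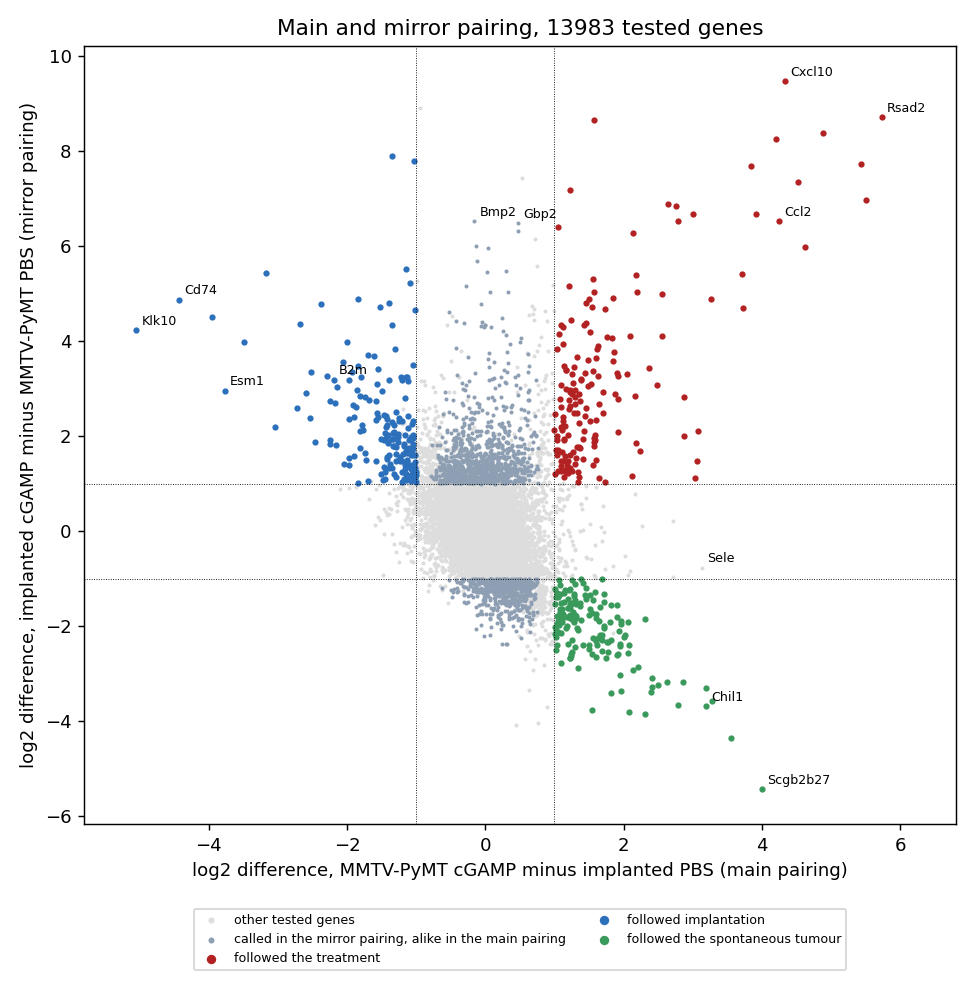
Each of the 13983 tested genes by its log2 difference in the main pairing (horizontal axis) and in the mirror pairing (vertical axis); dotted lines mark a 2-fold difference. Red genes (165) were higher in treated ECs of both pairings, blue genes (187) in implanted-tumour ECs of both, green genes (151) in spontaneous-tumour ECs of both, and slate genes (1521) were called in the mirror pairing but alike in the main one.

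The antiviral effectors, the products of type I interferon signalling that block viral replication, had the highest median of the 21 gene lists. Of 32 tested members, 20 were higher, 4 lower, 3 alike and 5 neither, with a median difference of 1.62. The shares over all tested genes, to set beside this and every later list, were 2.87% higher, 2.0% lower and 84.5% alike. All 32 were higher in treated implanted ECs in the mirror pairing, and the 20 higher members followed the treatment. Rsad2 encodes viperin, which makes a chain-terminating nucleotide. It read 754, 775 and 714 FPKM in treated MMTV-PyMT ECs and 13.6, 13.6 and 12 FPKM in untreated implanted ECs, a difference of 5.73 (SE 0.20, limma, Benjamini-Hochberg adjusted p = 3.17e-11). Every treated library was far above every untreated one. Ifit1, which binds foreign RNA caps, read 945, 679 and 809 FPKM against 21.2, 14.2 and 15.3 FPKM, and the difference was 5.51 (SE 0.27). Its level in treated implanted ECs was 703 ± 32.8 FPKM (SD, n = 3), within the range of the treated MMTV-PyMT libraries, while Rsad2 reached 1759 ± 278 FPKM there. Oasl1, a relative of the oligoadenylate synthetases, read 282, 270 and 296 against 8.58, 4.72 and 4.23 FPKM, with a difference of 5.43 (SE 0.21). The groups were again wide apart. Mx1, a dynamin-like GTPase that blocks viral nucleocapsids, was under 1 FPKM in all 3 untreated implanted libraries (0.877, 0.597 and 0.401) and at 40.1, 37.2 and 38.5 FPKM in the treated ones. The other largest differences were those of Ifit2 (4.88), Cmpk2 (4.52), a mitochondrial nucleotide kinase, Ifit3 (4.20) and Ifit3b (3.85). On mm10 the GENCODE M21 annotation places Rsad2 at chr12:26442746-26456452 (minus strand) and Cmpk2 beside it at chr12:26469204-26479837 (plus strand). Ifit3 and Ifit3b are near-identical, so the split of reads between them is uncertain.

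The 4 antiviral members that were lower had the opposite order. Bst2, which encodes tetherin, a membrane protein that holds budding virus on the cell, read 22.9, 40.1 and 30.9 FPKM in treated MMTV-PyMT ECs and 136, 102 and 92.3 FPKM in untreated implanted ECs, a difference of -1.80 (SE 0.21, limma, Benjamini-Hochberg adjusted p = 1.09e-05). The untreated implanted libraries were all above the treated ones. Oas2, which makes the activator of RNase L, was at 2.61, 3.41 and 3.05 against 10.8, 10.6 and 15.2 FPKM, and its neighbour Oas3 differed by -1.52 (SE 0.24). Zbp1, a sensor of left-handed nucleic acid, read 4.37, 6.23 and 6.97 against 23.8, 12.6 and 15.5 FPKM. In MMTV-PyMT ECs under PBS these 4 genes averaged 0.298 (Oas3) to 19.3 FPKM (Bst2), and all 4 were higher in treated implanted ECs in the mirror pairing. Among the alike members, Trim30a differed by 0.07 (interval -0.44 to 0.59) and Xaf1 by 0.20 (interval -0.14 to 0.55).

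The interferon-inducible GTPases, which attack vacuoles and membranes of pathogens, were split. Of 14 tested members, 5 were higher, 1 lower, 4 alike and 4 neither, with a median of 0.73, and all 14 were higher in treated implanted ECs in the mirror pairing. Irgm2 read 118, 153 and 168 FPKM in treated MMTV-PyMT ECs against 47.3, 33.2 and 39.7 FPKM, a difference of 1.84 (SE 0.17). Irgm1, a regulator of the same family, read 34.0, 36.2 and 38.2 against 11.7, 7.98 and 8.99 FPKM, a difference of 1.83 (SE 0.13). Neither overlapped between the groups. Gbp2 belonged to the alike members. It read 297, 383 and 409 FPKM in treated MMTV-PyMT ECs and 327, 225 and 238 FPKM in untreated implanted ECs, a difference of 0.47 (interval 0.03 to 0.90). The 2 groups overlapped, while the untreated spontaneous ECs averaged 17.4 ± 1.38 FPKM and the treated implanted ECs 1663 ± 401 FPKM. Gbp3 was nearer still, at 30.4, 52.7 and 44.2 against 50.6, 36.1 and 36.6 FPKM (difference 0.03, interval -0.42 to 0.48). Gbp5, in the same gene cluster (chr3:142493978-142522344, plus strand) as Gbp3 (chr3:142560026-142573209) and Gbp2 (chr3:142620602-142638008), was higher by 1.23 (SE 0.18). Gbp10 was the lower member, at 2.57, 5.21 and 4.22 against 12.2, 7.61 and 10.2 FPKM, a difference of -1.15 that fell to -0.93 and below the 2-fold limit without MMTV-PyMT cGAMP library 1. Igtp was higher by 1.05 (SE 0.18), and this call was lost without implanted PBS library 2 or MMTV-PyMT cGAMP library 2 or 3. Igtp and Irgm2 overlap on the same strand, so their reads may not be fully separate.

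**Figure D3:**
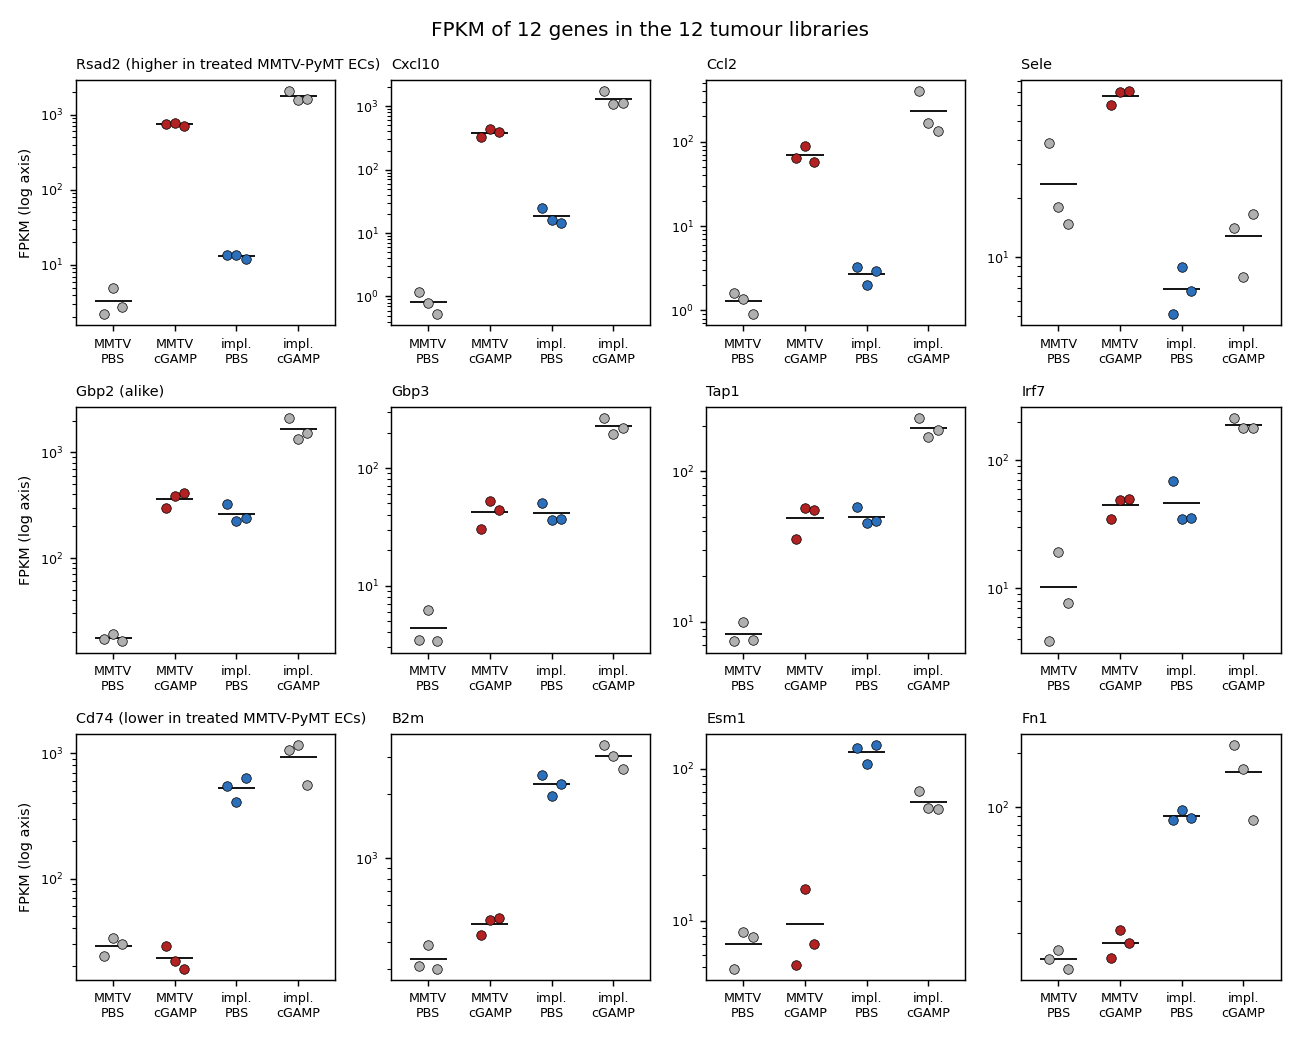
FPKM of 12 genes (log axes) in each tumour library; bars are group means, red marks MMTV-PyMT cGAMP, blue implanted PBS, and grey the mirror groups. The top row shows genes higher in treated MMTV-PyMT ECs, the middle row alike genes whose red and blue points overlap, and the bottom row genes lower in treated MMTV-PyMT ECs.

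Promoter sequences of 5 of these interferon genes are shown because members of all 3 outcomes hold the same letters. The sequences come from RefSeq on mouse build GRCm38.p6 and give the bases just before the gene start, in the direction of transcription. Capitals mark GAAANNGAAA or, on the other strand, TTTCNNTTTC, the core letters of an interferon-stimulated response element (ISRE), and 2 matches may overlap. Rsad2 and Ifit1 were higher, Gbp2 and Gbp3 alike, and B2m, the light chain of MHC class I, lower in treated MMTV-PyMT ECs.
Rsad2, chr12:26456453-26456582, minus strand: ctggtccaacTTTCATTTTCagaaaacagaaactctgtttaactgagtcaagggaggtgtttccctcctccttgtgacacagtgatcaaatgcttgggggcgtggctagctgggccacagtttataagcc
Ifit1, chr19:34640759-34640888, plus strand: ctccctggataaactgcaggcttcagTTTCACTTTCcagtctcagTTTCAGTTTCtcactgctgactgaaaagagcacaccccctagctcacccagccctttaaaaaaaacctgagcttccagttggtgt
Gbp2, chr3:142620533-142620662, plus strand: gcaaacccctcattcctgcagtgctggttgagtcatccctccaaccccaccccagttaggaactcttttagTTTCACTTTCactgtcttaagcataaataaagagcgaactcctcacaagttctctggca
Gbp3, chr3:142559914-142560043, plus strand: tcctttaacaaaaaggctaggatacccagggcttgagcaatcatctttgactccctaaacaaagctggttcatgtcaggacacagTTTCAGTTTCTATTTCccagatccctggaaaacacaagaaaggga
B2m, chr2:122147537-122147686, plus strand: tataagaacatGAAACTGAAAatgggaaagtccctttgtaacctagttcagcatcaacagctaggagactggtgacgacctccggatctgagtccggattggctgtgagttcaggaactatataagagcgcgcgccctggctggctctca
The match lay 120 bases before the start in Rsad2, 104 and 85 in Ifit1, 59 in Gbp2, 45 and 39 in Gbp3, where the pair overlaps, and 139 in B2m. Of 32851 mouse promoter windows of 300 bases, 1131 (3.44%) held these letters. A match describes the sequence and is no evidence of a bound site. Windows were at hand for only 70.3% of the tested genes and 71.5% of the 165 genes that followed the treatment, so shares of promoters with the letters were not compared between groups of genes.

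Of 18 tested signalling genes of the interferon system, 2 were higher, none was lower, 11 were alike and 5 were neither (median 0.25), beside 84.5% alike among all tested genes. Irf1, an early transcription factor of both interferon types, read 131, 141 and 131 FPKM against 54.6, 44.5 and 45.9 FPKM, a difference of 1.46 (SE 0.13). Stat2, a part of the type I complex, read 25.5, 33.1 and 32.0 against 13.8, 13.7 and 12.3 FPKM, a difference of 1.12 (SE 0.13). Both were higher in every treated library. Irf7, the amplifier of type I interferon production, read 34.7, 49.0 and 49.9 against 68.5, 34.9 and 35.4 FPKM, with overlapping groups and an interval of -0.79 to 0.79. Without MMTV-PyMT cGAMP library 1 the higher count of this list rose from 2 to 5. In the STING pathway, 1 of 6 tested members was higher and 5 were alike. Cgas, the DNA sensor that makes cGAMP, read 4.49, 5.81 and 4.78 against 1.14, 1.67 and 1.2 FPKM (difference 1.37, SE 0.12). Tmem173, which encodes STING, read 24.9, 32.7 and 36.6 against 34.2, 40.6 and 34.8 FPKM (difference -0.22, interval -0.54 to 0.09), above the 15.4 ± 2.18 FPKM of untreated MMTV-PyMT ECs.

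Among all alike genes, the largest mirror difference was that of Bmp2, a secreted growth factor. It read 7.97, 11.9 and 12.3 FPKM in treated MMTV-PyMT ECs and 19.1, 8.20 and 10.7 FPKM in untreated implanted ECs (difference -0.16, interval -0.77 to 0.44). The 2 groups overlapped, between a mean of 1.4 ± 0.417 FPKM in untreated spontaneous ECs and 230 ± 105 FPKM in treated implanted ECs, a mirror difference of 6.52. Nlrc5, the transactivator of MHC class I genes, read 6.70, 13.1 and 10.4 against 12.7, 10.6 and 13.0 FPKM, with a mirror difference of 5.16. Batf2, a leucine-zipper transcription factor, read 6.37, 10.2 and 8.46 against 13.1, 6.81 and 8.11 FPKM. For each of these genes the treated spontaneous and the untreated implanted ECs lay together between the mirror groups. That they lay together was fixed by their choice as alike genes. Rnf213, a very large ubiquitin ligase, differed by 0.33 (mirror 5.03), the long non-coding RNA AW112010 by -0.14 (mirror 5.99), Phf11b by 0.04 (mirror 5.97), F830016B08Rik by 0.29 (mirror 5.47) and the GTPase gene Gm4951 by 0.47 (mirror 6.31). Side by side, Bmp2 differed from untreated MMTV-PyMT ECs by 2.28 in the treated MMTV-PyMT group and by 2.45 in the untreated implanted group. The same pair of values was 2.59 and 2.87 for Nlrc5 and 4.30 and 3.83 for Gbp2, against 7.49 and 1.76 for Rsad2. These 2 differences share the untreated MMTV-PyMT libraries, and subtracting the second from the first gives the main difference. Their closeness in alike genes therefore follows from how those genes were chosen.

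**Figure D4:**
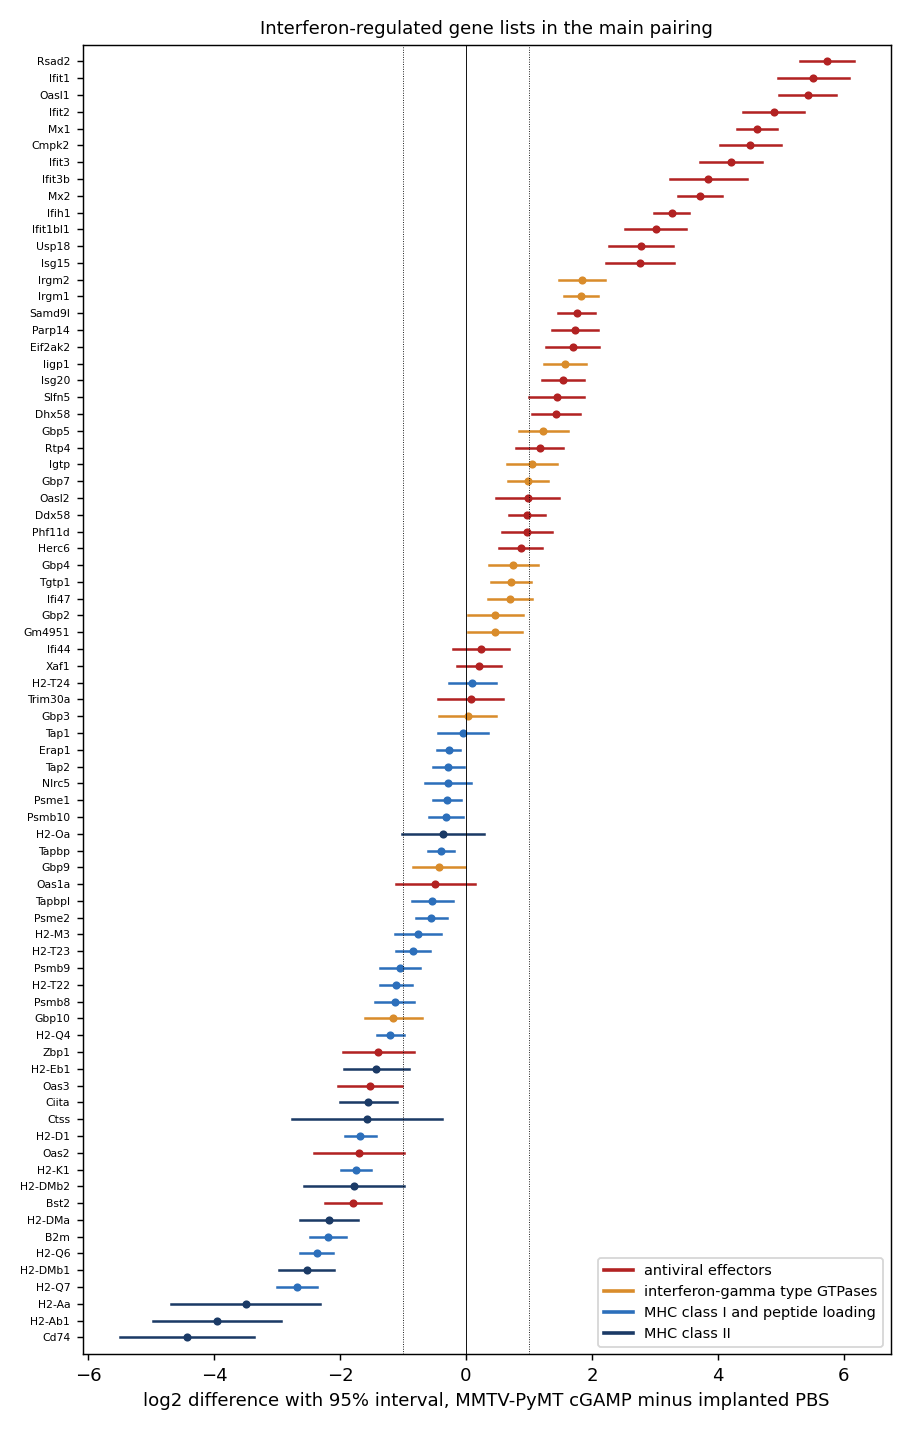
Log2 difference, MMTV-PyMT cGAMP minus implanted PBS (horizontal axis), with its 95% interval for every tested member of 4 interferon-regulated lists, ordered by the difference; dotted lines mark 2-fold. Antiviral effectors (red) run from 5.73 for Rsad2 to -1.80 for Bst2, GTPases (amber) lie in the middle, and MHC class II genes (dark blue) reach -4.43 for Cd74.

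MHC class II genes had the lowest median of the 21 lists. Of 10 tested members, 9 were lower and the remaining one, H2-Oa, was neither, with a median difference of -1.97. All 9 followed implantation. Cd74, the invariant chain that guides class II molecules to endosomes, read 29.2, 22 and 19.1 FPKM in treated MMTV-PyMT ECs and 545, 409 and 629 FPKM in untreated implanted ECs, a difference of -4.43 (SE 0.50, limma, Benjamini-Hochberg adjusted p = 8.01e-06). The groups were far apart, and untreated MMTV-PyMT ECs, at 29.2 ± 4.63 FPKM, were near the treated ones. H2-Ab1 and H2-Aa, the β and α chains of the I-A molecule, differed by -3.95 and -3.50. H2-Ab1 read 3.92, 4.44 and 5.16 against 84.4, 66.6 and 105 FPKM. H2-DMb1, a chain of the peptide editor H2-DM, differed by -2.53 (SE 0.20). Ciita, the master coactivator of class II, read 0.60, 0.639 and 0.746 against 4.75, 3.03 and 3.94 FPKM, a difference of -1.55 (SE 0.22). All 3 untreated implanted libraries were above the treated spontaneous ones. Ctss, a lysosomal protease of antigen presentation, differed by -1.57 (SE 0.56), but its libraries spread widely, and the call was lost with replicate number as a block (limma, Benjamini-Hochberg adjusted p = 0.0574) and without any one of 5 libraries. Leukocyte sums were 24 to 27.7 FPKM in treated MMTV-PyMT ECs and 32.3 to 74.9 FPKM in untreated implanted ECs. None of the 10 leukocyte markers was called. Ptprc, which encodes CD45, was at 0.156 to 0.311 against 0.370 to 1.09 FPKM, a difference of -0.52 without a call. Cd79a went the other way (0.23). The part of leukocytes in the class II difference was not tested.

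The MHC class I list was lower in the light chain and in several heavy chains. Of 21 tested members, 9 were lower, 10 alike and 2 neither, and none was higher (median -0.76). B2m read 432, 511 and 521 FPKM against 2483, 1970 and 2245 FPKM, a difference of -2.19 (SE 0.14, limma, Benjamini-Hochberg adjusted p = 1.76e-08). H2-K1, a classical heavy chain, read 175, 188 and 200 against 684, 565 and 646 FPKM (difference -1.74, SE 0.11). H2-Q7, a non-classical heavy chain, read 4.02, 4.34 and 3.68 against 30.4, 29.3 and 34.0 FPKM (difference -2.68, SE 0.15). None of these overlapped between the groups. Heavy-chain genes are close relatives, and how the counting shared their reads was not stated. The heavy chains H2-T23 (-0.84) and H2-M3 (-0.76) were not called. Of the 9 lower members, 2 are immunoproteasome subunits, Psmb8 (-1.13) and Psmb9 (-1.05), and both calls were lost without MMTV-PyMT cGAMP library 1 (-0.95 and -0.86), that of Psmb9 also without implanted PBS library 1 (-0.97). Tap1, the peptide transporter, read 35.3, 57.0 and 55.0 against 58.0, 45.3 and 46.9 FPKM, with overlapping groups (difference -0.05, interval -0.45 to 0.35). H2-T24 was also alike (difference 0.10, interval -0.27 to 0.48). In the mirror pairing both B2m and Tap1 were higher in treated implanted ECs (3.19 and 4.40).

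Chemokines divided sharply. Of 15 tested members, 7 were higher, 1 was lower, 4 were alike and 3 were neither (median -0.07). Cxcl10, a ligand of the T-cell receptor CXCR3, read 330, 433 and 392 FPKM in treated MMTV-PyMT ECs and 24.9, 16.0 and 14.5 FPKM in untreated implanted ECs, a difference of 4.34 (SE 0.22, limma, Benjamini-Hochberg adjusted p = 1.78e-09). Ccl2, which draws monocytes, read 64.2, 90.1 and 57.2 against 3.29, 1.98 and 2.93 FPKM (difference 4.25, SE 0.36). Ccl5, a T-cell and monocyte attractant, read 68.5, 48.3 and 56.5 against 3.12, 1.88 and 3.79 FPKM (difference 3.92, SE 0.22). The treated libraries were above the untreated ones in each case. Ccl7, the neighbour of Ccl2, differed by 3.73 (SE 0.33). Cxcl9, also a CXCR3 ligand, had the opposite order, at 82.9, 149 and 141 against 289, 213 and 201 FPKM. Its difference of -0.94 (interval -1.59 to -0.29) stopped short of the 2-fold limit, and its mirror difference was 8.90. Cxcl9 (chr5:92321347-92328079), Cxcl10 (chr5:92346638-92348889) and Cxcl11 (chr5:92359544-92365485) lie next to one another on the minus strand, and Cxcl11, a further CXCR3 ligand, was higher by 1.57 (SE 0.26). Ccl8, at chr11:82115185-82116799 in the cluster of Ccl2 (chr11:82035571-82037453) and Ccl7 (chr11:82045712-82047525), was called lower at -1.56 (SE 0.58), a call lost under 13 other settings, among them replicate number as a block (limma, Benjamini-Hochberg adjusted p = 0.0663). Cxcl1, a neutrophil attractant, was alike, at 21.1, 18.6 and 21.1 against 20.2, 17.2 and 27.8 FPKM.

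Adhesion molecules for leukocytes were higher in 4 of 12 tested members, with 6 alike and 2 neither (median 0.28). Among all tested genes 2.87% were higher and 84.5% alike. Sele, which encodes E-selectin, read 60.2, 69.9 and 71.0 FPKM in treated MMTV-PyMT ECs and 5.11, 8.88 and 6.74 FPKM in untreated implanted ECs, a difference of 3.13 (SE 0.34, limma, Benjamini-Hochberg adjusted p = 5.44e-06). Selp, which encodes P-selectin, read 109, 133 and 135 against 12.8, 28.8 and 16.1 FPKM (difference 2.72, SE 0.26). Both selectins were far higher in every treated spontaneous library. In the mirror pairing neither was called, with differences of -0.77 for Sele and 0.20 for Selp. Against untreated MMTV-PyMT ECs, which both values share, Sele differed by 1.57 in treated MMTV-PyMT ECs and by -1.55 in untreated implanted ECs. Vcam1 and Icam1, which hold leukocytes firmly, were higher by 1.55 and 1.26 and followed the treatment. Vcam1 read 23.9, 39.9 and 34.2 against 11.7, 8.86 and 10.3 FPKM. Icam2, a constitutive adhesion molecule, differed by -0.84 without a call. Among 12 venous genes, Selp and Ackr1 were the 2 called, both higher, and 8 were alike. Ackr1, a chemokine-binding receptor of venules, read 52.9, 63.5 and 63.3 against 9.14, 20.4 and 11.5 FPKM (difference 2.12, SE 0.24).

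NF-kB targets and feedback genes were higher in 7 of 22 tested members, lower in none, alike in 12 and neither in 3 (median 0.40). Csf3, the granulocyte growth factor, read 20.4, 21.4 and 16.7 FPKM against 1.74, 1.2 and 1.43 FPKM (difference 3.06, SE 0.27). Il6, an acute-phase cytokine, read 35.1, 37.4 and 31.9 against 3.57, 3.58 and 4.46 FPKM (difference 2.88, SE 0.37). Tnf, the tumour necrosis factor, read 61.0, 27.0 and 27.4 against 10.3, 6.06 and 10.6 FPKM (difference 1.91, SE 0.27). None of these overlapped, although Tnf spread widely among the treated libraries. Tnfaip3, the feedback inhibitor A20, differed by 1.70 (SE 0.20). Of the 7 higher members, Ripk2 lost its call without MMTV-PyMT cGAMP library 2, and Bcl3 without MMTV-PyMT cGAMP library 3 (0.97). The NF-kB subunit Nfkb2 was alike, at 13.5, 16.8 and 16.8 against 16.1, 15.9 and 14.8 FPKM. In the checkpoint list, Cd274, which encodes PD-L1, was the 1 member called of 13, at 52.2, 71.7 and 62.7 against 13.2, 6.05 and 8.97 FPKM (difference 2.65, SE 0.24). Of all tested genes 4.88% were called.

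Of 26 tested tip cell genes, 13 were lower in treated MMTV-PyMT ECs, 4 alike, 9 neither and none higher (median -1.0), and all 13 followed implantation. Esm1, a secreted proteoglycan of sprouting ECs, read 5.10, 16.3 and 7.03 FPKM in treated MMTV-PyMT ECs and 136, 107 and 143 FPKM in untreated implanted ECs, a difference of -3.77 (SE 0.29, limma, Benjamini-Hochberg adjusted p = 1.94e-07). Cxcr4, the receptor of CXCL12, read 20.1, 27.6 and 21.1 against 157, 165 and 143 FPKM (difference -2.72, SE 0.22). Angpt2, a destabilising ligand of TIE2, read 11, 16.5 and 15.1 against 76.0, 61.4 and 59.8 FPKM (difference -2.14, SE 0.19). All untreated implanted libraries were above all treated spontaneous ones for these 3 genes. Kcne3, a potassium channel subunit, differed by -2.16. Untreated MMTV-PyMT ECs lay close to the treated ones, with 7.02 ± 1.90 FPKM of Esm1 and 9.48 ± 0.451 FPKM of Angpt2. Aplnr, the apelin receptor, was alike, at 78.3, 96.7 and 104 against 68.6, 130 and 88.2 FPKM. Klk10, a secreted kallikrein, was in no list and had the lowest difference of the called genes that did not overlap, -5.05 (SE 0.37). It read 1.34, 2.55 and 0.927 against 93.6, 92.5 and 64.6 FPKM.

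Arterial genes were lower in 6 of 19 tested members, alike in 12 and neither in 1 (median -0.35). Gja5, which encodes connexin 40, read 1.33, 2.57 and 1.62 FPKM against 12.5, 12.7 and 11.7 FPKM (difference -2.25, SE 0.16). Efnb2, which encodes ephrin-B2 and marks arterial ECs, read 13.1, 20.5 and 15.6 against 55.3, 54.4 and 54.2 FPKM (difference -1.70, SE 0.20). Unc5b, a netrin receptor that the tip cell list also holds, differed by -1.51 and Hey1, a Notch target, by -1.47. Hey1 did not follow implantation, with a mirror difference of -0.07. Bmx, an arterial kinase, was alike at 0.51. Of 30 tested matrix genes, 4 were lower, 14 alike and 12 neither (median -0.58). Fn1, which encodes fibronectin, read 14.5, 20.7 and 17.6 against 85.5, 96.2 and 86.7 FPKM (difference -2.29, SE 0.23), and Tnc, which encodes tenascin C, read 7.83, 11.4 and 11 against 32.4, 30.8 and 31.4 FPKM (difference -1.57, SE 0.23). Both kept their groups apart. The other 2, Nid2 and Lama4, lost their calls without MMTV-PyMT cGAMP library 1 or implanted PBS library 2. Fibroblast marker sums were lower in the same direction, 167 to 227 against 283 to 320 FPKM, but the single markers were mixed. Col1a1 (-1.05), itself a collagen gene, Col1a2 (-0.71) and Pdgfra (-0.11) had lower values. Lum (1.41), Dcn (0.87) and Col3a1 (0.06) had higher ones. The part of fibroblasts in the matrix difference was not tested. Col4a1, the main collagen of vessel basement membrane, was alike, at 665, 1014 and 890 against 940, 1074 and 857 FPKM.

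Hypoxia and glycolysis genes were lower in 10 of 22 tested members, alike in 10 and neither in 2, with a median of -0.88. Egln3, an oxygen-sensing hydroxylase, read 11.9, 8.86 and 11.6 FPKM against 53.2, 41.6 and 53.4 FPKM (difference -2.10, SE 0.16). P4ha1, a collagen prolyl hydroxylase, read 5.85, 8.97 and 7.38 against 23.4, 32.8 and 41.2 FPKM (difference -1.98, SE 0.18). Bnip3, a mitophagy receptor, differed by -1.57, and Vegfa, the main angiogenic growth factor, by -1.43 (SE 0.19). These 4 genes were lower in every treated spontaneous library. Among the other lower members, Gapdh and Egln1 lost their calls without implanted PBS library 2, and Gapdh and Ddit4 without MMTV-PyMT cGAMP library 1. Gapdh also lost its call with scaling by total recovered reads (-0.99). Slc16a3, a lactate exporter outside the list, was at 1.30, 2.09 and 1.52 against 14.2, 17.6 and 10.9 FPKM. Ldha, which makes that lactate, was alike, at 193, 193 and 181 against 195, 197 and 188 FPKM. Pfkfb3, an activator of glycolysis, differed by 0.81 without a call (interval 0.45 to 1.17). Of the complement and coagulation genes, 3 of 21 tested members were lower and 11 alike. Serping1, the C1 inhibitor, differed by -1.47 (SE 0.26), while C3 and C2 lost their calls without implanted PBS library 1 or 3, and C3 also without any one MMTV-PyMT cGAMP library. The part of the leukocyte and fibroblast markers in these 3 was not tested.

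The remaining lists held few calls. Of all tested genes 4.88% were called and 84.5% were alike, the shares to set beside their counts. Without the fold limit, 4838 of the 13983 tested genes had an adjusted p under 0.05 (limma, Benjamini-Hochberg). The share of all genes at an unadjusted p under 0.05 was not counted. It cannot be lower, so the unadjusted counts here are not read as particular to a list. Of 27 tested cell cycle genes, 25 were alike, with a median of -0.02. Calls by limma and by voom numbered 0, and 7 genes had an unadjusted p under 0.05 (2 higher, 5 lower). Mki67, a marker of dividing cells, read 10.1, 8.96 and 10.4 FPKM against 7.45, 11.8 and 9.74 FPKM. Among 20 genes of the PI3K-AKT-mTOR pathway, 18 were alike and 0 were called by limma or voom, while 9 had an unadjusted p under 0.05 (5 higher, 4 lower). Of 28 apoptosis genes, 23 were alike and 2 were higher, Tnfsf10, which encodes the death ligand TRAIL (1.10, SE 0.15), and Casp4, an inflammatory caspase (1.09, SE 0.13). Both calls were lost without MMTV-PyMT cGAMP library 2. At an unadjusted p under 0.05, 15 of the 28 apoptosis genes differed (10 higher, 5 lower). Short of the 2-fold limit, Bak1 (-0.89) and Bax (-0.74) were lower and Bid (0.70) was higher. Of 20 capillary genes for fatty acid handling, 17 were alike, and Car4, a carbonic anhydrase of capillaries, was the 1 called, at 1.41, 3.10 and 1.78 against 13.6, 9.25 and 7.46 FPKM. Of 22 immediate early and shear genes, 16 were alike. Atf3, a stress transcription factor, read 164, 159 and 157 against 52.9, 47.0 and 57.4 FPKM (difference 1.59, SE 0.18), and Edn1, the vasoconstrictor endothelin-1, differed by -1.29 (SE 0.20).

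**Figure D5:**
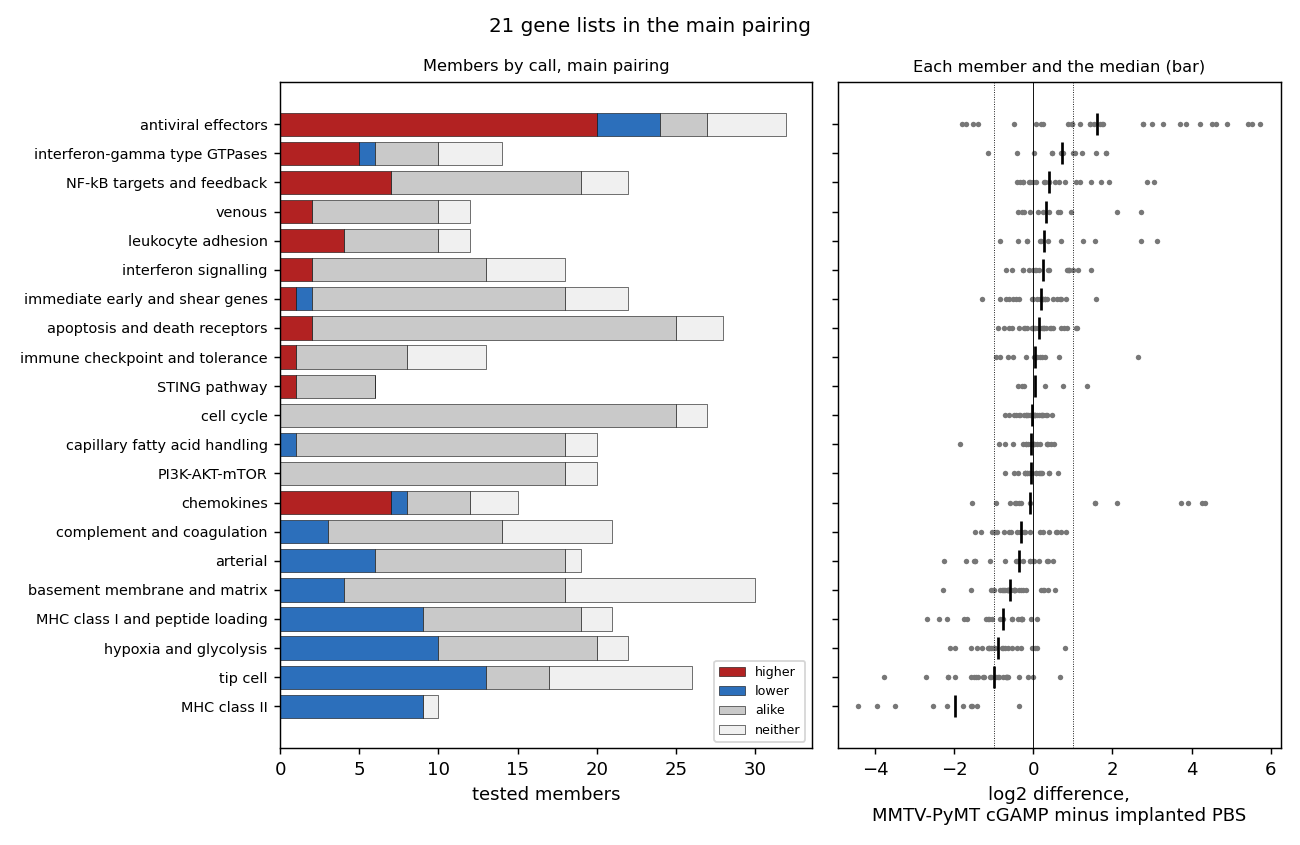
Left, tested members of the 21 gene lists by call in the main pairing (number of genes on the horizontal axis); right, each member's log2 difference with the list median as a bar and dotted lines at 2-fold. Medians run from 1.62 for antiviral effectors to -1.97 for MHC class II, and cell cycle and PI3K-AKT-mTOR genes hold no call.

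Of the 151 genes that followed the spontaneous tumour, the 6 with the largest smaller difference of both pairings are described. Lalba, which encodes the milk protein α-lactalbumin, read 928, 637 and 679 FPKM in treated MMTV-PyMT ECs and 94.0, 59.5 and 76.4 FPKM in untreated implanted ECs, a difference of 3.27 (SE 0.41, limma, Benjamini-Hochberg adjusted p = 2.13e-05). Scgb2b27, a secretoglobin, read 96.0, 57.9 and 142 against 7.90, 2.30 and 5.80 FPKM (difference 4.0, SE 0.45). Car6, a secreted carbonic anhydrase, read 112, 106 and 228 against 17.5, 5.22 and 13.8 FPKM (difference 3.56, SE 0.42). The spontaneous libraries were higher throughout. Chil1, a chitinase-like secreted protein, differed by 3.19 (SE 0.20), and Glycam1, a mucin-like protein that L-selectin binds and that milk also holds, by 3.19 (SE 0.41). Snora73a, a small nucleolar RNA, differed by 2.87 (SE 0.35). Csn1s1, a casein of milk, had the opposite order, and the milk genes Csn2, Csn3 and Wap were not called. Csn1s1 read 32.5, 36.9 and 3.89 FPKM in treated MMTV-PyMT ECs and 105, 131 and 247 FPKM in untreated implanted ECs, a difference of -3.04 (SE 0.91). The call was lost without implanted PBS library 3 or without MMTV-PyMT cGAMP library 3, where the difference was -2.09. Epithelial marker sums were 1160 to 1580 FPKM on the spontaneous side and 771 to 1030 FPKM on the implanted side, though Krt19 and Csn2 had lower values on the spontaneous side. The part of epithelial cells in these differences was not tested. 2 further genes among the lowest differences followed implantation. Ms4a6d, of the membrane-spanning 4A family, read 0.479, 1.44 and 2.02 against 18.7, 23.4 and 15.6 FPKM, and Moxd1, a copper-dependent monooxygenase, read 1.70, 1.78 and 3.35 against 17.5, 18.5 and 19.0 FPKM.

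Implanted cGAMP library 2, the one with the high leukocyte sum, belongs to the mirror pairing alone. Without it, 403 genes were higher and 285 lower in the main pairing, and 166 followed the treatment, 193 implantation and 158 the spontaneous tumour. The genes called in the mirror pairing and alike in the main one then numbered 1801.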

How the data were processed

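ECs were sorted, and RNA was sequenced from directional libraries (NEBNext Ultra II). Per the labels and the study's methods, the authors checked reads with FastQC, aligned them to mm10 with STAR 2.7 and counted them with HTSeq. Use of the strand was not stated. The deposited table holds FPKM of 16248 genes in 18 libraries, 0 of the values at 0, so genes not detected in every library were not analysed here. How the authors made FPKM from the counts was not stated. Whole reads could be recovered for 99.54% of genes (within 0.05 of a whole number), with 9076682 to 12057468 reads per library. Of the gene names, 19 read as dates, a spreadsheet error. The 6 columns of normal fat pad name the treatment and number only and were mapped by elimination. They entered the fit for its estimate of spread.

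Genes with FPKM of at least 1 in 3 or more of the 18 libraries were tested (13983, with 2265 below). limma 3.58.1 in R 4.3.3 was fitted to log2(FPKM + 1) with 1 mean per group and a trend, 2-sided, and p-values were adjusted by Benjamini-Hochberg over all tested genes. Differences of low genes are understated on this scale. Intervals are pointwise. The median standard error was 0.131. The fit was also run on simulated counts with a single fixed spread and independent libraries. That run does not test the fit at the spread of the real libraries. The 6 pairs of libraries within the 2 groups all differed by more than sampling noise.

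Named genes were the 12 largest called, non-overlapping differences in each direction, the 6 with the largest smaller difference of both pairings in each shared direction, the 10 alike genes with the largest mirror difference, and up to 6 members per list. Ciita, Csn2, Csn3, Wap, Psmb8, Psmb9, H2-M3, H2-T23, Cxcl1, Cxcl9, Icam2, H2-K1, Hey1, Igtp, Nfkb2, Tnfaip3, Col4a1, Vegfa, Ldha, Pfkfb3, Bak1, Bax, Bid and Mki67 were chosen after their values were seen. The members and the 21 lists were chosen with earlier results of these data known. Gapdh, Egln1, Ddit4, Ripk2 and Bcl3 are named because their calls were lost under some alternatives. Lists are described by counts and medians, with no set test. Alternatives covered the pseudocount, filters, scaling, samples in the fit, voom on recovered reads, the replicate block, the limits and leaving out each library. Some items are not reported here.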

Additional observations from a re-analysis of the deposited data

How the results depend on the processing

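No called main-pairing difference of a named gene or list member changed sign under any alternative run, but the balance of the mirror pairing did change with the scaling. The 8 counts of genes (called higher and lower in the main and the mirror pairing, the 3 shared directions, and mirror-called genes alike in the main pairing) stayed within 1.5 times their values when any library was left out. The ranges were 367 to 437 for genes higher and 225 to 348 for genes lower in the main pairing, 1552 to 1809 and 797 to 1071 in the mirror pairing, 148 to 176 for the treatment, 150 to 220 for implantation, 124 to 181 for the spontaneous tumour and 1328 to 1801 for mirror-called genes alike in the main pairing. With a pseudocount of 0.1, which raises the weight of low genes, 686 were higher and 595 lower in the main pairing, 1666 were lower in the mirror pairing, and 252, 364 and 298 followed the treatment, implantation and the spontaneous tumour. voom on recovered reads gave 705, 600, 1763, 253, 366 and 305 for the same counts. With a mean FPKM of at least 5, which left 6910 genes, 184 were lower in the main pairing, 1040 higher and 533 lower in the mirror pairing, 90 followed the spontaneous tumour and 869 mirror-called genes were alike. Scaling by total recovered reads moved the median mirror difference from -0.031 to -0.382 and gave 995 genes higher and 2166 lower there, turning the balance of 1712 and 936, while the main median moved from 0.007 to 0.024. With no fold limit the counts were 2664 and 2174 in the main and 4331 higher and 4716 lower in the mirror pairing, 930, 1204 and 1550 for the shared directions and 7456 for mirror-called genes alike. An alike limit of 1.5-fold left 584 of the latter.

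Libraries of the same replicate number deviated together in some pairs only, with correlations of 0.16, 0.21 and -0.14 in the main and 0.29, 0.12 and 0.05 in the mirror pairing. Libraries of different numbers gave -0.24 to 0.10 in the main and -0.26 to 0.17 in the mirror pairing. With 3 libraries per group these values cannot decide whether the numbers pair the samples. With replicate number as a block the counts were 402, 277, 1708, 936, 165, 185, 151 and 1498. The list of MHC class II held 4 lower genes with a mean FPKM of at least 5, since fewer were tested. Complement and coagulation held 1 lower gene without implanted PBS library 1 or 3 and 5 without library 2, matrix 2 lower genes without MMTV-PyMT cGAMP library 1, and capillary genes 3 lower without MMTV-PyMT cGAMP library 2. With 3 libraries per group and a median interval half-width of 0.280, the 1484 genes neither called nor alike cannot be placed on either side. Genes near 1 FPKM are damped by the pseudocount.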
